A study of Mus musculus with 18 samples.

Results

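The RANK ligand axis and osteoclast markers were followed here as 10 genes of the 27179 in the table, chosen by name: Tnfsf11 (RANK ligand, RANKL), Tnfrsf11a (its receptor RANK), Tnfrsf11b (osteoprotegerin, OPG), Csf1 (macrophage colony-stimulating factor, M-CSF), Nfatc1, Oscar, Acp5, Ocstamp, Dcstamp and Calcr. Each name was found on 1 row. RNA was sequenced from 18 cultures of bone marrow mesenchymal stem cells (MSCs), the adherent stromal cells of marrow, in 3 groups of 6 libraries called young, old and rejuvenated old. All came from C57BL6 mice, which the study's methods give as males of 6 weeks (young) or 18 to 24 months (old), and the cells were used at passage 2 to 5. Young and old MSCs were grown alone for 7 days without treatment, and rejuvenated old MSCs were old MSCs grown for the same 7 days with 100000 cells per well beside young MSCs behind a membrane with 0.4 µm pores, which passes soluble factors but not cells. Old MSCs grown beside other old MSCs were not analysed here, so the presence of a second cell layer and the age of its donors cannot be told apart. The labels call the libraries biological replicates without saying which came from separate mice, so that p-values measure the spread between these libraries.

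Osteoclasts are the bone-resorbing cells that arise by fusion of precursors of the macrophage line. Stromal cells and osteoblasts drive this by making M-CSF, which keeps the precursors alive, and RANKL, which binds RANK on them and switches on the transcription factor NFATc1 and through it the genes of fusion and resorption. OPG, also made by stromal cells, is a soluble decoy that binds RANKL, so that the balance of RANKL and OPG sets how much RANK is engaged. Marrow stromal cells are thus known as a source of the ligands, and cells of the macrophage line as the bearers of the receptors and of the osteoclast markers.

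Promoters of axis genes whose levels differed between the groups are shown first, except that of Tnfrsf11b, for which none was matched. The levels below are counts per gene, and the start sites that the RNA used were not measured. RefSeq promoters on GRCm38.p6 (the same assembly as the mm10 used for the files) were matched for 6 of the 10 genes, and 3 of these are printed 5′ to 3′, from 250 bases before to 50 bases after the start site, with motif matches in capitals. The Tnfsf11 window (chr14:78307994-78308293, minus strand) held 1 match to the TATA box TATAAA on the opposite strand, so that it reads TTTATA, with its first base at -32. The Csf1 window (chr3:107760420-107760719, minus strand) held 2 GC boxes GGGCGG, at -51 and -41. The Tnfrsf11a window (chr1:105780473-105780772, plus strand) held 5 GC boxes, at -69, -50, -36 and -29 and, as CCGCCC, at 14, and 1 core TGACG of the cyclic AMP response element, read as CGTCA, at -134. These positions count from the start site of the window, which lies downstream of the gene start given below, 105780673. Counted from that gene start, some of these boxes would lie after the start.
Tnfsf11: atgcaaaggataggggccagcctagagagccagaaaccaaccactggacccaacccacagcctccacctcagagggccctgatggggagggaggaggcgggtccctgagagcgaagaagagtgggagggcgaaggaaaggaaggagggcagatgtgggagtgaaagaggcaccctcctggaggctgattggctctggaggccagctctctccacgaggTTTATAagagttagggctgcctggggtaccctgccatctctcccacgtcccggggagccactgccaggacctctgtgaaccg
Csf1: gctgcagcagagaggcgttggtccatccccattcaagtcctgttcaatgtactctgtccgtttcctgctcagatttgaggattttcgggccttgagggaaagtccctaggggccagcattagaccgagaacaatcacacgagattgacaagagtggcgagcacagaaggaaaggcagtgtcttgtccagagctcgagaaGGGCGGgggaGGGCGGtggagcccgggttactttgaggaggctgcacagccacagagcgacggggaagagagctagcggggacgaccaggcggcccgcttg
Tnfrsf11a: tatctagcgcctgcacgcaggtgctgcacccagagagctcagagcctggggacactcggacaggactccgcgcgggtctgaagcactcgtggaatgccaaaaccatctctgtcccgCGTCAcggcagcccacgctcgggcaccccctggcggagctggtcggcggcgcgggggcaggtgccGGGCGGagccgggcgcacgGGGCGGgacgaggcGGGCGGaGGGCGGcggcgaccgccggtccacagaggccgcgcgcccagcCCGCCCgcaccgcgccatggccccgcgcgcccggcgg
Both strands were searched for TATAAA, the RUNX site TGTGGT, the box GGGCGG, the AP-1 site TGANTCA and the core TGACG, and the matches in these windows did not overlap one another. Of all 32851 RefSeq promoters of this length, 13.6% held TATAAA, 16.8% TGTGGT, 35.7% GGGCGG, 7.81% TGANTCA and 20.8% TGACG. A match is a description of the letters and not a bound site.

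The libraries held 22936251 to 25648769 reads on genes in the young, 24965971 to 29559194 in the old and 26018046 to 29155223 in the rejuvenated old libraries. Values below are normalized counts, the reads of a gene divided by the size factor of its library. Rejuvenated old replicate 1 stood apart: its root mean square difference from the rest of its group was 0.37 (log2), against 0.24 to 0.30 in the other 17 libraries. It also held 2.01% of the young level of 58 genes that had at most 3 reads in every old library and a mean of at least 100 in young libraries, against 0.139% to 0.200% in the other rejuvenated old libraries. Thy1, a stromal surface marker among these, was at 21.6 in this library and at most 0.951 in the other 5, with 175 to 227 in young MSCs. The tests and ratios of the members that use this library are therefore also given without it.

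The marker lists were checked before the members. The summed level of 10 stromal cell markers was 169039 to 182023 in the young, 359102 to 378159 in the old and 363013 to 405625 in the rejuvenated old libraries, with all but Thy1 at a mean of 10 or more in each group, and the 8 B and T cell markers summed to at most 18.3 in any library. The 18 markers of macrophages and other white blood cells summed to 1001 to 1133 in the young, 18318 to 22671 in the old and 18245 to 22045 in the rejuvenated old libraries. In young MSCs 8 of the 18 were at or under 3 reads in every library, and Ptprc (CD45, the common white blood cell antigen) and Adgre1 (F4/80, a macrophage antigen) had no read, while the old libraries held 179 ± 16.6 and 296 ± 29.7 (SD, n = 6) of these. Young MSCs thus lay below both other groups on this list without overlap, and the old and rejuvenated old ranges overlapped. In such bulk cultures, fewer cells of a type and less RNA per cell cannot be told apart.

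**Figure D1:**
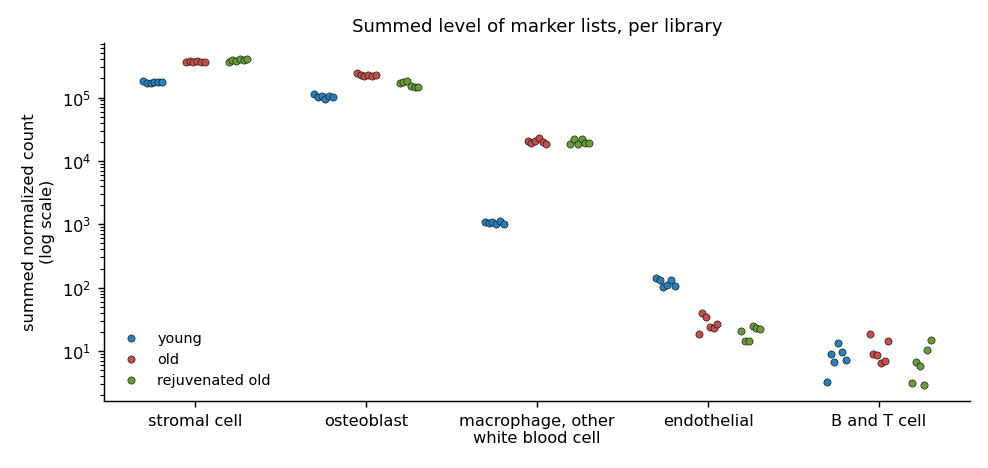
Summed normalized count of 5 marker lists (log scale) in each of the 18 libraries, coloured by group. The white blood cell sums of the young libraries lie at 1001 to 1133, below the 18245 to 22671 of all other libraries, while the old and rejuvenated old points overlap.

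RANKL mRNA was lowest in the young, intermediate in the old and highest in the rejuvenated old libraries, and OPG mRNA followed the same order at a higher level. Both rose in rejuvenated old against old MSCs, 2.76-fold for Tnfsf11 and 2.11-fold for Tnfrsf11b as ratios of means (2.93-fold and 2.12-fold without rejuvenated old replicate 1). Each difference was tested by limma, fitted to log2(normalized count + 1) of the 14353 genes whose mean was 10 or more, and called at a Benjamini-Hochberg adjusted p under 0.05. Log2 fold changes on this scale are smaller than the true ones for low genes.

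Tnfsf11 (gene number 21943), the ligand that signals osteoclast formation, lies on the minus strand of chromosome 14 from 78277446 to 78308043. Its lowest, median and highest normalized counts were 13.4, 16.5 and 33.7 in young, 51.8, 64.4 and 78.5 in old, and 126, 178 and 228 in rejuvenated old MSCs. The groups did not overlap, with every rejuvenated old library above every old one and every old library above every young one. The means were 20.0 ± 8.12, 66.1 ± 9.28 and 182 ± 34.8 (SD, n = 6). By limma, rejuvenated old MSCs exceeded old MSCs by 1.44 (log2, standard error 0.19, adjusted p = 2.66e-06), and young against old MSCs gave -1.75 (adjusted p = 1.33e-08). Rejuvenated old MSCs held 9.13 times the young level, or 9.70 times without rejuvenated old replicate 1. Without this library, the lowest of its group at 126, the rise over old MSCs was 1.54, the largest value among the fits that each left out 1 library.

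Tnfrsf11b (gene number 18383), the soluble decoy receptor, lies on the minus strand of chromosome 15 from 54250619 to 54278484. Its lowest, median and highest normalized counts were 52.5, 72.0 and 81.6 in young, 949, 1125 and 1197 in old, and 2001, 2233 and 2815 in rejuvenated old MSCs. The groups again did not overlap in any pair. The means were 69.4 ± 11.0, 1107 ± 91.3 and 2330 ± 329 (SD, n = 6). By limma, Tnfrsf11b rose by 1.07 (log2, standard error 0.10, adjusted p = 1.17e-08) over old MSCs when these were grown beside young cells, and by 1.07 also without rejuvenated old replicate 1. Young MSCs lay below old MSCs by the largest margin of the members above the floor of 3 reads, with 15.9 times as much in old MSCs (log2 fold change -3.99, adjusted p = 1.16e-20). Between rejuvenated old and young MSCs the ratio was 33.6, and 33.8 without rejuvenated old replicate 1.

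Because ligand and decoy moved in the same direction, their balance was described in each library as log2(Tnfsf11 + 1) minus log2(Tnfrsf11b + 1), with no test. It ran from -2.41 to -1.20 in young (-1.81 ± 0.54, SD, n = 6), from -4.41 to -3.58 in old (-4.05 ± 0.27) and from -4.16 to -3.40 in rejuvenated old MSCs (-3.68 ± 0.29). The old and rejuvenated old ranges overlapped, and all young libraries lay above both. In terms of means, 3.48 normalized counts of Tnfrsf11b stood beside each count of Tnfsf11 in the young, 16.7 in the old and 12.8 in the rejuvenated old libraries. Per kilobase of exon the same ratios were 2.76, 13.3 and 10.1. The lowest ratio of any library, not corrected for length, was 2.35, in young MSCs, and the highest was 21.6, in old MSCs. Without rejuvenated old replicate 1, which had the lowest balance of its group, the mean log2 balance of rejuvenated old MSCs was -3.58, and the ratios of their means were 12.1 and, per kilobase, 9.60.

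**Figure D2:**
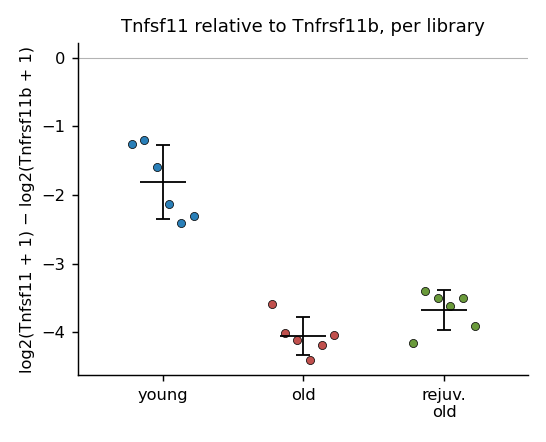
Balance of RANKL and OPG mRNA, log2(Tnfsf11 + 1) minus log2(Tnfrsf11b + 1), in each library, with the mean and SD of 6 libraries per group. All points lie below 0, the young libraries at -2.41 to -1.20 above both other groups, whose ranges overlap.

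RANK itself was found in old and rejuvenated old MSCs and hardly in young MSCs. Tnfrsf11a (gene number 21934) lies on the plus strand of chromosome 1 from 105780673 to 105849444. Its lowest, median and highest normalized counts were 0, 1.06 and 3.26 in young, 21.7, 33.3 and 42.3 in old, and 19.3, 23.6 and 34.0 in rejuvenated old MSCs. The 6 young libraries held 8 reads in all, spread over 4 libraries and none with more than 3. A trace was thus read in young MSCs, but no young library passed the floor of 3 reads. Against the floor of 3 reads per library, old MSCs were at least 10.02-fold higher and rejuvenated old MSCs at least 7.84-fold higher (7.97-fold without rejuvenated old replicate 1). The gene passed the filter on low values only through these groups, so its calls against young MSCs (fitted log2 fold change of young against old -3.95, or -1.85 with a pseudocount of 10, and adjusted p = 1.10e-10, limma) follow from the filter in part. Old and rejuvenated old MSCs overlapped, and their difference was not called (log2 fold change -0.32, 95% interval -1.003 to 0.355, adjusted p = 0.459), and it was -0.30 without rejuvenated old replicate 1. The median gene of chromosome 1 was 0.69 lower in young than in old MSCs (-0.69, against -0.03 over all autosomes). The white blood cell markers were lower in the same libraries, and the part of either in the level of Tnfrsf11a was not tested.

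Csf1 was the most abundant member in every group, also per kilobase of exon. This gene (gene number 12977), on the minus strand of chromosome 3 from 107741048 to 107760469, had lowest, median and highest normalized counts of 6900, 7622 and 8334 in young, 41899, 42652 and 44897 in old, and 44346, 46113 and 49357 in rejuvenated old MSCs. The level in old MSCs was above that of 99.7% of all genes tested, and in young MSCs above that of 96.5%. Young MSCs lay far below the others, with 5.63 times as much Csf1 in old MSCs (log2 fold change -2.49, standard error 0.04, adjusted p = 4.43e-24, limma) and 6.07 times as much in rejuvenated old MSCs. Rejuvenated old and old MSCs overlapped and differed by 1.08-fold (log2 fold change 0.11, standard error 0.04, adjusted p = 0.0328). This small rise was called, but not in 7 of its 28 alternatives, among them the fits without old replicates 1, 4 or 5 or rejuvenated old replicates 4 or 6, where the adjusted p reached 0.0742. Leaving out rejuvenated old replicate 1 gave 0.11 and an adjusted p of 0.0448, and left the ratios at 1.08 and 6.07.

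Per kilobase of exon, which makes levels comparable between genes, the order in old MSCs was Csf1 at 8125 normalized counts, Tnfrsf11b at 393, Tnfsf11 at 29.6 and Tnfrsf11a at 5.28. In rejuvenated old MSCs it was the same, at 8763, 827, 81.6 and 4.13, or 8764, 832, 86.7 and 4.203 without rejuvenated old replicate 1. In young MSCs these levels were 1444, 24.6, 8.93 and 0.236.

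**Figure D3:**
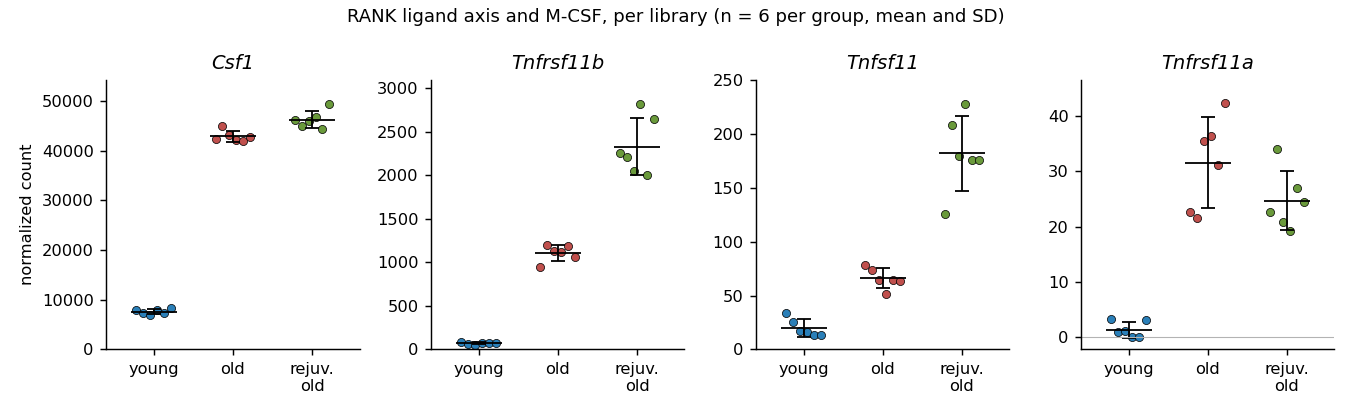
Normalized counts of Csf1, Tnfrsf11b, Tnfsf11 and Tnfrsf11a in each library (points), with the mean and SD of 6 libraries per group, each gene on its own linear axis. Young libraries are lowest for all 4 genes, and rejuvenated old libraries lie above all old libraries for Tnfrsf11b and Tnfsf11 but not for Csf1 and Tnfrsf11a.

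Of the 6 osteoclast markers Nfatc1 was well detected, Oscar was low, and the other 4 were near the limit of detection. Nfatc1 (gene number 18018), the transcription factor at the head of the osteoclast programme and also active in other cells, lies on chromosome 18 from 80606205 to 80713071. Its lowest, median and highest normalized counts were 806, 835 and 888 in young, 653, 750 and 796 in old, and 630, 668 and 702 in rejuvenated old MSCs. It was thus highest in young MSCs, all 6 of which lay above both other groups, which overlapped each other. The differences were small, 0.18 (log2, standard error 0.04, adjusted p = 0.000744, limma) in young against old and -0.15 (adjusted p = 0.00915) when rejuvenated old were set against old MSCs, the latter again -0.15 without rejuvenated old replicate 1 (adjusted p = 0.0162). An antisense gene overlaps 2571 bases of it, and whether reads were counted by strand is not given in the sources used here.

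Oscar (gene number 232790), a receptor that co-stimulates osteoclast precursors, lies on chromosome 7 from 3609813 to 3616157. Its lowest, median and highest normalized counts were 20.6, 24.4 and 33.7 in young, 7.27, 14.9 and 23.1 in old, and 10.5, 11.8 and 23.7 in rejuvenated old MSCs. Young MSCs were higher than old MSCs by 0.78 (log2, standard error 0.24, adjusted p = 0.00457, limma), with overlap of 1 old library. The median gene of chromosome 7 was itself 0.61 higher in young than in old MSCs, and its part in this difference was not tested. Rejuvenated old and old MSCs did not differ by the test (-0.06, 95% interval -0.56 to 0.43, adjusted p = 0.855), and leaving out 1 library moved the value from -0.24 to 0.06. The highest rejuvenated old library was replicate 1, at 23.7, and leaving it out gave -0.21 against old MSCs.

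Acp5 (gene number 11433, chromosome 9 from 22126727 to 22135746) encodes tartrate-resistant acid phosphatase, the classical enzyme stain of osteoclasts. It had 38 reads over the 6 young libraries (1 to 15 each), 3 over the old (0 or 1 each) and 9 over the rejuvenated old (0 to 3 each). Every young library lay above every old one, with normalized counts of 1.09 to 16.0 against at most 1.00. Young replicate 1 and 3 old libraries each held 1 read, however, and were set apart by their size factors alone. Being under the filter, it was tested by two-sided exact permutation over 924 splits, as 1 of 6 such tests. The difference of mean log2(normalized count + 1) between young and old MSCs was 2.11 (exact permutation p = 0.00216, the smallest these splits allow, which rests on that ordering of single reads). Against the floor of 3 reads per library, under which all old libraries lay, young MSCs were at least 2.24-fold higher. Between rejuvenated old MSCs, none of which passed 3 reads, and young MSCs it was -1.62 (exact permutation p = 0.0325), or -1.83 without rejuvenated old replicate 1 (exact permutation p = 0.0238), and without any 1 of young replicates 3, 5 or 6 or rejuvenated old replicates 3, 4 or 6 this p rose above 0.05, to at most 0.0671. Rejuvenated old and old MSCs differed by 0.49 (exact permutation p = 0.416), or by 0.28 without rejuvenated old replicate 1 (exact permutation p = 0.708). Another transcribed gene overlaps Acp5 on the opposite strand over 8985 bases, so that reads of the pair could be mixed if strand was not used.

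Ocstamp and Dcstamp, membrane proteins needed for the fusion of osteoclast precursors, and Calcr, the calcitonin receptor that mature osteoclasts carry, were at the edge of detection. Ocstamp (gene number 74614, chromosome 2 from 165395450 to 165400394) had 19 reads in the young, 7 in the old and 13 in the rejuvenated old libraries, at most 6 in any library. Its groups overlapped, and none of its 3 comparisons passed (exact permutation p = 0.156 for young against old, 0.463 for rejuvenated old against old and 0.485 for rejuvenated old against young). Leaving out young replicate 1, which had no read, changed the first to 0.026. Rejuvenated old replicate 1, at 6.18, was the highest of its group, and leaving it out moved the difference from old MSCs from 0.36 to 0.07 (exact permutation p = 0.913) and that from young MSCs from -0.41 to -0.70 (exact permutation p = 0.238). Dcstamp (gene number 75766, chromosome 15 from 39745930 to 39760938) had 2 reads in the young, 0 in the old and 2 in the rejuvenated old libraries. Calcr (gene number 12311, chromosome 6 from 3685678 to 3764713) had 2 reads in each group. An old library with 0 reads of Dcstamp, taken alone, allows up to 3 reads, or 2.73 to 3.23 normalized counts, as counting error. All old libraries had 0 reads, so their mean level is bounded more tightly than this. Neither Dcstamp nor Calcr was tested.

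**Figure D4:**
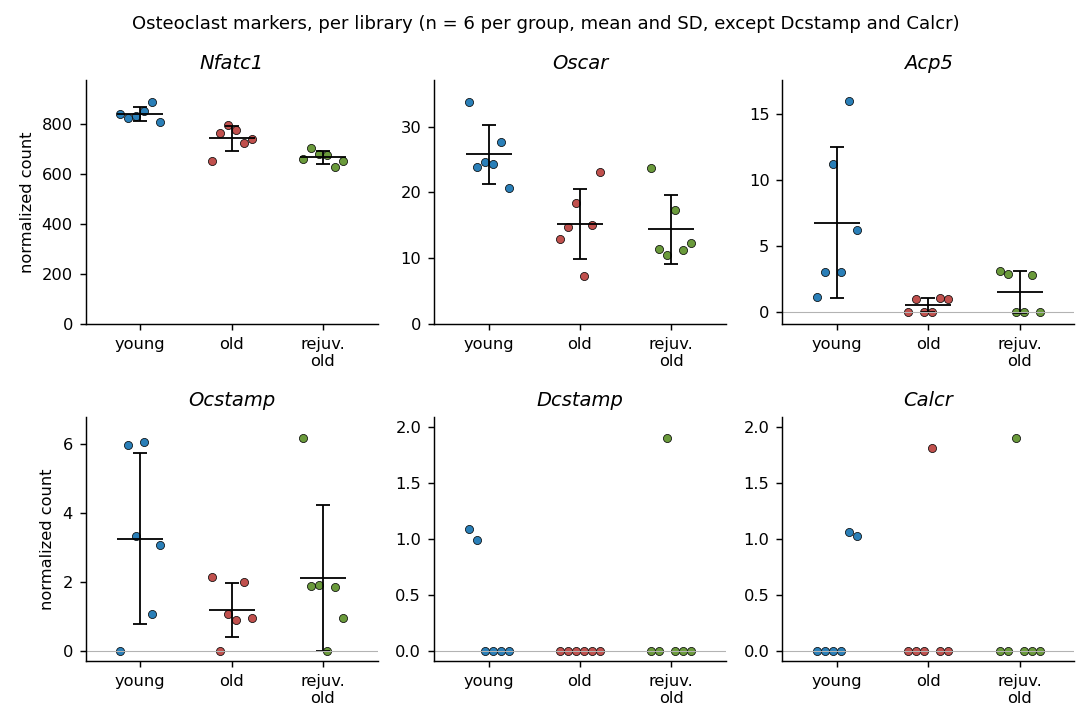
Normalized counts of the 6 osteoclast markers in each library, with the mean and SD of 6 libraries per group except for Dcstamp and Calcr, each gene on its own linear axis. Nfatc1 lies between 630 and 888 throughout, Oscar and Acp5 are highest in young MSCs, and Ocstamp, Dcstamp and Calcr do not exceed 6.18.

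Across the members, 6 of 10 passed the filter on low values and 4 (Acp5, Ocstamp, Dcstamp and Calcr) did not. In rejuvenated old against old MSCs, 3 of the 6 were called higher and 1 lower, against 41.6% of all 14353 genes tested called, 21.0% higher and 20.6% lower. The groups did not overlap for 2 of the 6, Tnfsf11 and Tnfrsf11b, against 22.0% of all genes. The median absolute log2 fold change of the 6 was 0.24, against 0.15 over all genes tested. In young against old MSCs all 6 were called, 2 higher and 4 lower, where 85.7% of all genes were called, 41.6% higher and 44.1% lower. Their groups did not overlap for 5 of 6, against 73.9% of all genes, and the median absolute log2 fold change was 2.12 against 0.60. In rejuvenated old against young MSCs all 6 were again called, 4 higher and 2 lower, against 85.6% of all genes, 44.1% higher and 41.5% lower. The groups did not overlap for 5 of 6, against 70.5% of all genes. These counts exclude the 4 members that could not be tested and include Tnfrsf11a, so they describe the members and are no test of them. Without rejuvenated old replicate 1 the called members stayed at 4, 6 and 6, the median absolute log2 fold change of the 6 against old MSCs was 0.26, and the groups without overlap numbered 2 against old and 6 against young MSCs. Both comparisons with old MSCs use the same 6 old libraries, so their values are not independent of each other.

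**Figure D5:**
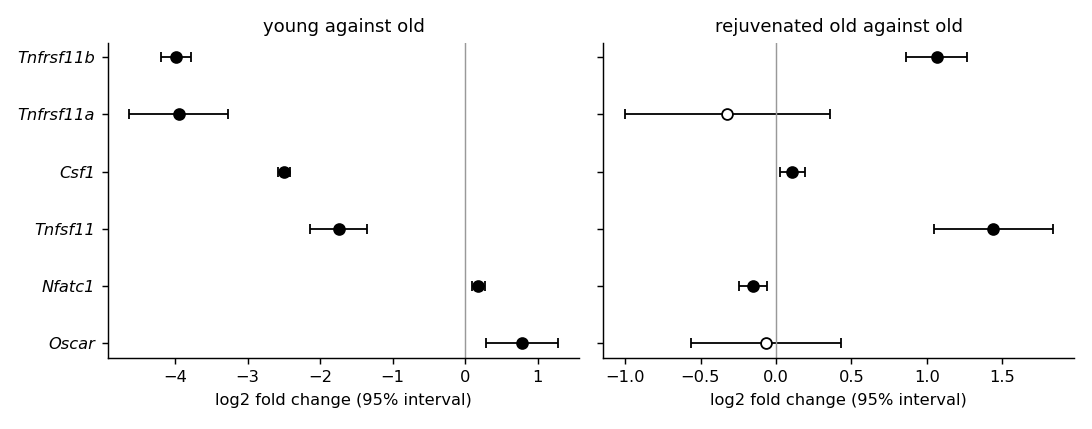
Log2 fold changes of the 6 members tested with limma, with 95% intervals, in young against old (left) and rejuvenated old against old MSCs (right), on separate axes and with the same old libraries in both. Filled points were called (adjusted p under 0.05), and open points, Tnfrsf11a and Oscar at right, were not.

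The receptor of M-CSF and its relatives differed mainly between young MSCs and the rest. Of the 6 listed, 4 were tested, and all 4 were lower in young than in old MSCs while 1 was higher in rejuvenated old MSCs. Of these 4, Csf2ra and Csf2rb had a mean under 10 in young MSCs and were tested only through the other groups, so that their calls against young MSCs follow from the filter in part. The shares called, 100% in young and 25% in rejuvenated old against old MSCs, stood beside 85.7% and 41.6% of all genes tested. Csf1r, the M-CSF receptor, was at 112 ± 11.8 in the young, 815 ± 54.1 in the old and 849 ± 71.6 in the rejuvenated old libraries (SD, n = 6), a log2 difference of -2.85 for young (adjusted p = 9.35e-21, limma) and 0.06 for rejuvenated old against old MSCs (adjusted p = 0.550). Csf1r also belongs to the white blood cell list, 17 of whose 18 genes were lower in young MSCs, and the part of those cells in its level was not tested. Il34, the second ligand of that receptor, rose from 472 ± 40.1 in old to 599 ± 71.4 in rejuvenated old MSCs (log2 fold change 0.34, adjusted p = 0.00167) and was at 250 ± 24.9 in young MSCs. Csf2ra and Csf2rb, which form the receptor of granulocyte-macrophage colony-stimulating factor, were at 0.358 and 4.39 in young against 562 and 72.9 in old MSCs.

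Of the 36 genes listed for RANK signalling, all tested, 9 were higher and 10 lower after co-culture with young cells, and 17 were higher and 17 lower in young than in old MSCs. The list holds genes that carry the signal and genes that restrain it, so that these counts give it no direction. The shares called, 52.8% and 94.4%, stood beside 41.6% and 85.7% of all genes tested, and leaving out 1 library moved the 9 between 6 and 10. Traf6, the adaptor that RANK binds, was at 694 ± 20.9 in old and 693 ± 38.5 in rejuvenated old MSCs (SD, n = 6) and 0.45 higher (log2, adjusted p = 4.39e-10, limma) in young MSCs. The activator protein-1 subunits Fosl1 and Fos rose most in rejuvenated old MSCs (0.80 and 0.70, adjusted p = 2.83e-09 and 1.21e-06), and Cblb, a ubiquitin ligase that restrains the pathway, and Ppp3ca, the catalytic subunit of calcineurin upstream of NFATc1, fell most (-0.69 and -0.37, adjusted p = 8.45e-10 and 2.76e-08). Lgr4, a further receptor of RANKL, was at 216 ± 26.3 in the young, 1823 ± 120 in the old and 1657 ± 95.5 in the rejuvenated old libraries, with 8.45 times as much in old as in young MSCs. The adaptor Traf1 and the subunit Fosl2 were higher in young than in old MSCs by 3.11 and 2.10 (adjusted p = 3.28e-10 and 3.18e-22). Traf1, at 52.5 in young but 5.41 in old and 6.16 in rejuvenated old MSCs, passed the filter only through the young group, which fixes its call in part.

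The co-stimulatory genes of osteoclast precursors were lower in young than in old MSCs for all 7 tested of 9. The shares called were 100% in young and 28.6% in rejuvenated old against old MSCs, beside 85.7% and 41.6% of all genes tested. Of the 7, Tyrobp, Fcer1g and Btk had means under 10 in young MSCs and were tested only through the other groups, so that the count follows from the filter in part. Tyrobp (DAP12), a signalling adaptor of the macrophage line, had at most 1.12 normalized counts in any young library against 655 ± 39.2 (SD, n = 6) in old MSCs, at least 208-fold higher, and its partner adaptor Fcer1g had 5.93 ± 1.63 against 742 ± 37.9. These adaptors also belong to the white blood cell list. In rejuvenated old MSCs 2 of the 7 were lower, the kinase Tec (-0.43, adjusted p = 0.000113, limma) and the receptor Trem2 (-0.29, adjusted p = 0.0163), while Tyrobp was at 633 ± 52.2. Among the transcription factors of the osteoclast line, 10 of 11 were tested, with 1 higher and 3 lower in rejuvenated old MSCs and 4 higher and 4 lower in young MSCs. The shares called, 40% and 80%, were near the 41.6% and 85.7% of all genes tested. Myc rose by 1.06 (adjusted p = 8.61e-12) in rejuvenated old MSCs, and Ppargc1b, a transcriptional coactivator, fell (log2 fold change -0.98, adjusted p = 0.00388). The mean of Ppargc1b was 9.92 after co-culture, just under the filter of 10, against 20.6 in old MSCs. It was thus tested only through the other groups, and its call follows from the filter in part. In young against old MSCs Bcl6 (2.63) and Myc (1.57) were highest, and Spi1 (PU.1, -5.36) and Irf8 (-1.86), both factors of the macrophage line, lowest. Spi1, at 4.38 in young MSCs, passed the filter only through the other groups.

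Of the 16 genes of bone resorption, all tested, 11 were lower and 1 higher after co-culture, and 12 were lower and 3 higher in young than in old MSCs. The shares called, 75% and 93.8%, stood beside 41.6% and 85.7% of all genes tested, of which 20.6% and 44.1% were lower. The median log2 fold change was -0.24 and -0.49, against 0.01 and -0.02 over all genes tested. Ctsk (cathepsin K, the collagenase of osteoclasts, also made by stromal cells) was at 4428 ± 102 in old and 4283 ± 371 in rejuvenated old MSCs (SD, n = 6; log2 fold change -0.05, adjusted p = 0.568, limma) and at 130 ± 16.5 in young MSCs. Mmp9, another matrix enzyme, went the other way, at 244 ± 31.6 in the young, 30.9 ± 7.61 in the old and 21.7 ± 6.05 in the rejuvenated old libraries. Its fall in rejuvenated old MSCs (-0.50, adjusted p = 0.0245) was not called without old replicates 3 or 4 or rejuvenated old replicates 3 or 4, where the adjusted p reached 0.0700, nor in a fit of these 2 groups alone. Clcn7, the lysosomal chloride exchanger, fell by 0.41 (-0.41, adjusted p = 2.31e-09), and Ckb, brain creatine kinase, rose by 0.64 (adjusted p = 1.62e-07). Car2, carbonic anhydrase 2, was 1.62 higher in young than in old MSCs (adjusted p = 1.07e-05), at 29.5 against 8.85 and with 5.83 in rejuvenated old MSCs, so that it passed the filter only through the young group. Atp6v0d2, the proton pump subunit typical of osteoclasts, was at 55.5 ± 5.17, 49.6 ± 7.07 and 50.1 ± 11.0 in young, old and rejuvenated old MSCs and was called in neither comparison with old MSCs (adjusted p = 0.266 and 0.993).

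Of the genes by which stromal cells regulate RANKL and OPG, 30 of 34 were tested, and 10 were higher and 10 lower in rejuvenated old MSCs. This even split was also that of all genes tested, 21.0% higher and 20.6% lower, with 66.7% of the list called against 41.6%. Between young and old MSCs 93.3% of the list was called, against 85.7% of all genes tested. Vdr, the vitamin D receptor, rose from 4760 ± 95.7 in old to 7033 ± 307 in rejuvenated old MSCs (SD, n = 6; log2 fold change 0.56, adjusted p = 8.08e-10, limma) and was at 407 ± 34.7 in young MSCs. Pth1r, the receptor of parathyroid hormone, rose from 136 ± 16.0 to 239 ± 42.9 (0.80, adjusted p = 0.00142) and was at 21.1 ± 6.92 in young MSCs. Both thus had the order of Tnfsf11 and Tnfrsf11b, young below old below rejuvenated old. Not all genes of the list shared this order, and the part of either receptor in the members' levels was not tested. The largest rises in rejuvenated old MSCs were those of the cytokine Il6 (1.08, adjusted p = 0.00415) and the transcription factor Cebpd (0.83, adjusted p = 1.59e-08), and the largest falls those of the Wnt co-receptor Ror2 (-0.70, adjusted p = 3.93e-09) and the interleukin-6 receptor Il6ra (-0.62, adjusted p = 0.000439). In young against old MSCs 12 were higher, led by Il11 (4.03) and the prostaglandin receptor Ptger2 (3.65), and 16 were lower, led by the ligand Wnt5a (-6.48) and the osteoblast transcription factor Sp7 (-6.21). Il11 and Ptger2 passed the filter only through young MSCs, and Sp7 only through the other groups.

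OPG also binds the ligand TRAIL and syndecans. Tnfsf10, which encodes TRAIL, was under the filter, at 3.86 ± 1.95 in the young, 3.27 ± 3.44 in the old and 0.661 ± 0.829 in the rejuvenated old libraries (SD, n = 6). Of the 6 partners and TRAIL receptors tested, 1 was higher and 3 lower in rejuvenated old MSCs and 2 were higher and 3 lower in young MSCs. The shares called, 66.7% and 83.3%, stood beside 41.6% and 85.7% of all genes tested. The TRAIL receptor Tnfrsf10b was at 431 in the young, 2079 in the old and 1608 in the rejuvenated old libraries (rejuvenated old against old -0.37, adjusted p = 1.14e-06, limma), and the decoy receptor Tnfrsf23 fell from 432 in old to 319 in rejuvenated old MSCs (-0.44, adjusted p = 4.56e-06) with 1084 in young MSCs. Tnfrsf22, another decoy, was 1.36 higher in young than in old MSCs. The heparan sulfate proteoglycan Sdc1 had 9.31 times as much in old as in young MSCs, and Sdc4 rose by 0.11 in rejuvenated old MSCs (adjusted p = 0.0112).

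Osteoblasts are a further known source of RANKL and OPG. The 10 osteoblast markers summed to 95610 to 113620 in the young, 220969 to 240794 in the old and 144292 to 179597 in the rejuvenated old libraries. Such sums are led by their most abundant genes, and Col1a1 is on both this list and the stromal one. All 10 osteoblast markers were lower in young than in old MSCs, as were Tnfsf11 and Tnfrsf11b. In rejuvenated old MSCs, where Tnfsf11 and Tnfrsf11b were higher than in old MSCs, 7 of the 10 were lower and 1 higher. Of the 10, 5 had a mean under 10 in young MSCs and were tested only through the other groups, so that the 10 follow from the filter in part. The 1 called higher became 2 without young replicate 4 and 0 without any of old replicates 1 to 5 or rejuvenated old replicates 1, 3, 4 or 6. The part of osteoblasts in the members' levels was not tested. The 6 endothelial markers summed to 104 to 140 in the young, 18.3 to 40.4 in the old and 14.2 to 25.1 in the rejuvenated old libraries, and of the 2 tested both were higher in young MSCs and 1 was lower in rejuvenated old MSCs, a call lost without old replicate 2 or rejuvenated old replicate 6. Kdr, 1 of these 2, passed the filter only through young MSCs. Of the 18 white blood cell markers 17 were lower and 1 higher in young MSCs, and 1 was higher and 1 lower in rejuvenated old MSCs. As 12 of the 18 had a mean under 10 in young MSCs and were tested only through the other groups, the 17 follow from the filter in part. Of the 10 stromal cell markers 7 were lower and 3 higher in young MSCs, and 4 were lower and 3 higher in rejuvenated old MSCs, with Thy1 tested only through young MSCs. Every tested gene of the osteoblast, endothelial, white blood cell and stromal lists was called in young against old MSCs, beside 85.7% of all genes. In rejuvenated old against old MSCs 80%, 50%, 11.1% and 70% of these lists were called, beside 41.6% of all genes.

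The genes whose pattern was most like that of a member were found among 13191 named genes as those with the smallest mean absolute difference in log2(normalized count + 1) over the 18 libraries, each gene centred on its own mean. For Tnfsf11 they were Adamts5 (mean difference 0.24), Stc1 (0.29) and Nov (0.30). Adamts5, an aggrecan-cleaving protease, had means of 1301, 4719 and 13365 in young, old and rejuvenated old MSCs. For Tnfrsf11b they were Thbd (0.13), Thsd4 (0.21) and Adm (0.21). Thbd, the anticoagulant receptor thrombomodulin, had means of 521, 9303 and 20086. For Csf1 they were Fgf7 (0.05), Smim3 (0.07) and Cdk18 (0.07), and Fgf7, a fibroblast growth factor of stromal cells, had means of 2205, 12450 and 13969. None of the 9 genes was among the listed genes of the pathway.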

How the data were processed

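Per the labels, the authors made TruSeq stranded mRNA libraries from the RNA of 18 cultures, aligned the reads to mm10 with HISAT2, and used StringTie, featureCounts and DESeq2. Versions, annotation and strand setting are not given in the sources used here. The deposited signal of a gene in a library is its read count over that library's size factor, and no replicates were pooled. For 16 libraries 1 read was found as the step of all values, and for the other 2 the step lay close to 1. All values (100%) were whole reads within 0.01, with a largest departure of 5.55e-05. Libraries within a group (45 pairs) differed by more than sampling noise (chi-square per degree of freedom 2.60 to 23.7).

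The test was limma 3.58.1 in R 4.3.3 on log2(value + 1), with a mean for each group, a prior variance that follows the mean, a filter of a mean of at least 10 and an adjusted p under 0.05. Genes under the filter that passed 3 reads in some library were tested by exact permutation. Python 3.11.15 with scipy 1.17.1 served for these. Positions came from RefSeq GRCm38.p6, in which 25275 of the 27179 gene numbers were found, and exon lengths and overlapping genes from GENCODE vM21. The script for the fit was tested on simulated counts.

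The members and the gene lists were chosen with earlier results of these data known. Genes named beside the members are 11 fixed partners and, from each pathway list, the 2 called genes that rose most and the 2 that fell most in each comparison with old MSCs. The values of 1 gene that this rule names are not reported here. Marker genes, Btk and the 58 genes of young MSCs with at most 3 reads in every old library were named outside this rule. Of these, the 58 genes, Btk, Kdr and Thy1 were named after their values were seen. Alternatives covered pseudocounts of 0.5 and 10, no filter and a mean of at least 50, the same total and the same 75th percentile per library, fits of 2 groups, the replicate number as a block, edgeR 4.0.16 and DESeq2 1.42.0 on the recovered reads, and leaving out each library.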

Additional observations from a re-analysis of the deposited data

Results flagged for a closer look

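Ocstamp in rejuvenated old replicate 1, at 6.18 normalized counts, lay far from the other 5 libraries of its group (0 to 1.90), with a gap of 0.692 of the group's range above Dixon's critical value at 95%. It was the 1 flag among 23 sets of member and group examined, and chance flags about 1 set in 20. The value rests on 6 reads, in the library that also held more of the genes of young MSCs than the rest of its group.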

How the results depend on the processing

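Of 498 alternative results for the 6 members tested, 488 kept their direction and side of the threshold, 7 lost the call and 3 changed sign. The lost calls were all of Csf1, rejuvenated old against old, whose adjusted p was 0.0523 without the filter on low values, 0.0738 with the same total per library and up to 0.0742 without 1 library. The sign changes were of Oscar, rejuvenated old against old, never called, from -0.245 to 0.0639 without 1 library. The members called in that comparison numbered 3 to 4 without 1 library, and the calls among members under the filter 1 to 3 (2 with all libraries). Tnfrsf11a and Oscar could not be tested with a mean of at least 50. Atp6v0d2, rejuvenated old against old, had -0.0021 and was reversed to 0.00026 with a pseudocount of 10, 0.00087 with the same 75th percentile, 0.015 with edgeR and 0.012 with DESeq2, and ran from -0.086 to 0.084 without 1 library. Traf6, rejuvenated old against old, had -0.0023, was 0.00067 with the same 75th percentile and ran from -0.026 to 0.023 without 1 library. For Lgr4 and Ptprc the lower level in rejuvenated old MSCs, not called with all groups in one fit, was called in the fit of 2 groups, with edgeR and with DESeq2. Of 1644 alternatives for 59 results of other named genes, 1614 kept direction and side, and 36 of 2016 list counts moved by over 1.5 times. The causes were not tested. Replicate numbers did not pair the libraries (18 same-number correlations of deviations from -0.15 to 0.074, none above 0.1, and the best match was the same number in 2 of 36 checks). With the replicate number as a block the called members stayed at 4, 6 and 6, all genes called in rejuvenated old against old MSCs were 5769 against 5971, and of the calls named here only that of Mmp9 was lost (adjusted p = 0.0502). Depth limits Dcstamp, Calcr, Ocstamp and Acp5, which a few reads decide.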
